A study of Homo sapiens with 6 samples.

Results

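The DNAJ or HSP40 family comprises the J-domain proteins, the cochaperones that bring client proteins to HSP70. Its genes were taken as all those whose symbol in the annotation of the array begins with DNAJ, counting only probe sets that name 1 gene, which gave 30 of 12165 measured genes, represented by 51 probe sets. The study exposed LNCaP cells, an established human prostate cancer line, to gedunin at 20 µM for 6 h (3 arrays) or to DMSO, its solvent, for 6 h (3 arrays). The cells were grown in serum-containing medium, and total RNA of each culture was read on an Affymetrix array of 22215 probe sets. Arrays are numbered as biological replicates in the labels, which do not say whether the cultures were grown apart, so the p-values rest on a spread between arrays that may be technical. Gedunin, a limonoid of neem and related trees, has been compared with inhibitors of HSP90, and the comparison addresses the early response to it.

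HSP70 proteins bind unfolded stretches of other proteins and release them in a cycle driven by ATP. A J-domain protein delivers the client and speeds ATP hydrolysis, which locks HSP70 onto it, and nucleotide exchange factors then free it. By sequence, class A members resemble bacterial DnaJ in full, class B members lack its zinc-binding region, and class C members share only the J domain. Some J-domain proteins of the cytosol are heat shock genes induced by HSF1, others sit in the endoplasmic reticulum (ER) beside the HSP70 called BiP, and others serve mitochondria. By the letter in the symbol, 4 of the 30 genes belonged to class A, 8 to class B and 18 to class C. By the location of the protein, assigned from general knowledge, 15 were cytosolic or nuclear and 7 belonged to the ER lumen or membrane. A further 3 were mitochondrial. The other 5, DNAJC4, DNAJC12, DNAJC13, DNAJC22 and DNAJC28, were placed elsewhere or not assigned. Another assignment of these 5 could change the counts and medians by compartment.

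The array labelled DMSO 3 went against its label and is shown apart from the comparison, which sets the 3 gedunin arrays against DMSO 1 and DMSO 2. The summed intensity of 9 luminal prostate marker genes was 15148 to 15824 on the gedunin arrays, 15831 and 16317 on DMSO 1 and 2, and 269 on DMSO 3. That of 12 leukocyte marker genes was 802 to 892 on the gedunin arrays, 971 and 983 on DMSO 1 and 2, and 21612 on DMSO 3. On each of the 5 arrays compared, 1 of these 12 leukocyte genes read above the array's median, and on DMSO 3 it was 8. The medians of all probe sets lay between 31.1 and 32.0 on the 6 arrays. Intensities are the deposited RMA values on a linear scale, folds and errors come from limma on log2 values, and a gene is called where its p-value, adjusted over all probe sets, is under 0.05. Intensities of different probe sets are not compared with each other. In RNA from whole cultures, a change in the share of cells that express a gene and a change in RNA per cell cannot be told apart.

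The stretches of promoter below are shown because they hold, before or close to the start site, pairs of the GAA unit bound by heat shock factor, in genes that turned out to be at least 2-fold higher with gedunin. They come from RefSeq (GRCh38.p14), are written 5′ to 3′ on the strand of the gene, and have in capitals each match to GAANNTTC or TTCNNGAA. Both motifs read the same on either strand, and an element of 3 units is an overlapping pair of the 2 motifs. Offsets count the start base as 0.
DNAJB1 (chr19:14518418-14518497, minus strand, offsets -100 to -21 of 1 of its 3 listed starts): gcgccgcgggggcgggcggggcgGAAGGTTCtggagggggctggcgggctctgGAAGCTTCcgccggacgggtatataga
DNAJB4 (chr1:78004819-78004868, plus strand, offsets -120 to -71 of 1 of its 2 listed starts): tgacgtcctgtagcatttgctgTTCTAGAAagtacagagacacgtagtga
DNAJB6 (chr7:157336854-157336913, plus strand, offsets -150 to -91): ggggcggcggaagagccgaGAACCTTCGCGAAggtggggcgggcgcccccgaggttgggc
DNAJA1 (chr9:33025264-33025293, plus strand, offsets -9 to 20): gcgcgccgggcgGAACTTTCCAGAAcgctc

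In the DNAJB6 and DNAJA1 stretches the matches overlap into an element of 3 units, and in DNAJA1 that element begins 3 bases after the start base. Windows of 250 bases before to 50 after a start were available for 27 of the 30 genes, in 35 windows. DNAJC1, DNAJC22 and DNAJC24 were not matched. An element of 3 units was found in 2 of the 35 windows (5.71%), against 172 of 35116 windows of all genes (0.490%). Either pair of units was found in 8 windows (22.9%), against 13.5% of all windows. Among the 27 matched genes, 4 of the 6 that were at least 2-fold higher with gedunin had such a pair, as did 0 of the 7 called higher by less than 2-fold and 3 of the 14 that were not called higher. Those 3 were DNAJA4, with GAANNTTC at offsets -91 and -52, DNAJC6 and DNAJC15. A gene was counted if any of its windows had a pair, so these counts are not on the same footing as the 13.5% of windows. The ER stress response element (CCAAT, 9 bases, then CCACG, searched on both strands) was found in 0 of the 35 windows and in 0.0769% of all windows. The ATF4 motif TGATGNAA, on either strand, was found in 1 window, of DNAJA4 (2.86%, against 3.62% of all windows). These are matches of letters in short windows and say nothing about binding in these cells.

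Gedunin raised a subset of the family. Of the 30 genes, 13 were called higher and 3 lower, and 14 were not called. Among all 12165 genes, 8.24% were called higher and 9.36% lower. The median log2 fold change was 0.27 over the DNAJ genes and -0.017 over all genes. At least 2-fold rises were called for 6 DNAJ genes (DNAJB1, DNAJB4, DNAJB9, DNAJB6, DNAJA1 and DNAJB2), against 1.84% of all genes. All 3 called falls were smaller than 2-fold. Centring each array on GAPDH and ACTB lowered the median over all genes to -0.19. The DNAJ genes then split into 10 higher and 8 lower, against 5.36% and 25.8% of all genes, so that the lower share was close to that of all genes. Their median was 0.10. That scaling ended the calls of DNAJA3, DNAJB12 and DNAJC2 and added DNAJA4, DNAJC4, DNAJC17, DNAJC22 and DNAJC28 as lower. With all 6 arrays in the fit, 6 were called higher and 0 lower by limma, against 1.31% and 0.362% of all genes. At an unadjusted p of 0.05 that fit gave 5 lower, against 6.36% of all genes.

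**Figure D1:**
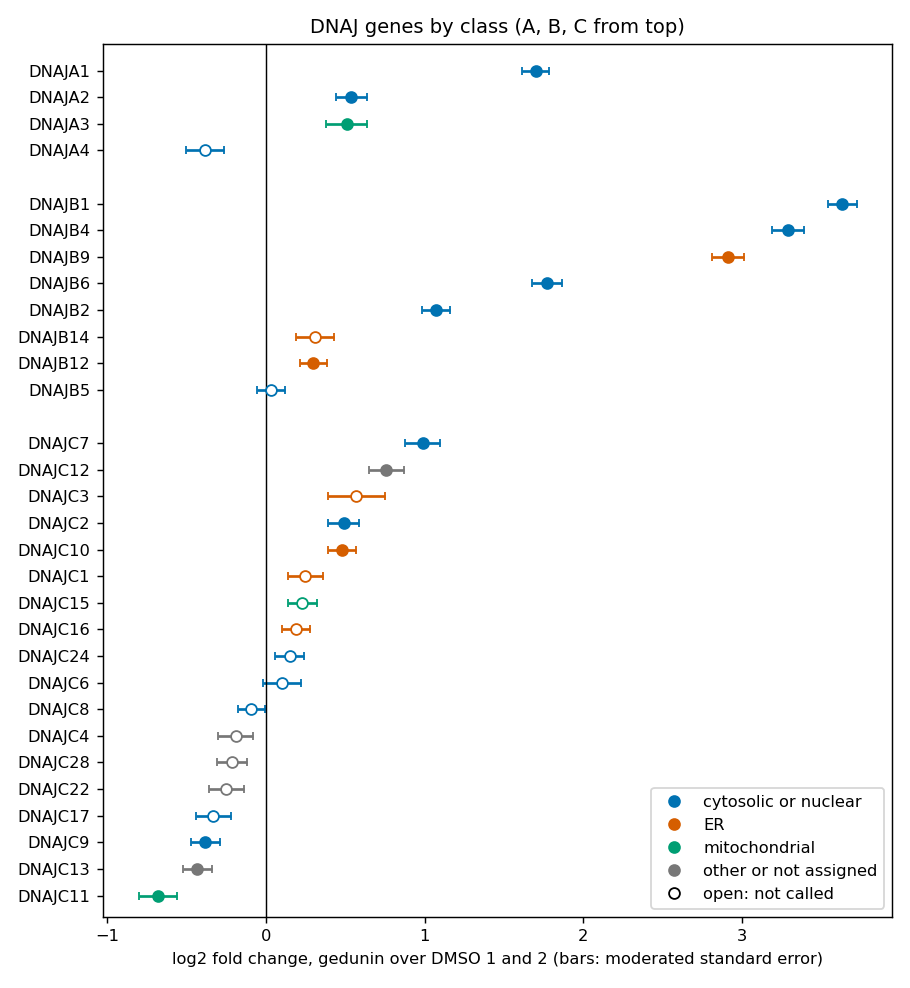
Log2 fold change of each DNAJ gene, gedunin (3 arrays) over DMSO 1 and 2, with the moderated standard error as bars, grouped by class A, B and C from the top; colour gives the compartment, and filled points passed an adjusted p of 0.05. Class B holds the 4 highest points, DNAJB1 (3.63), DNAJB4 (3.29), DNAJB9 (2.91) and DNAJB6 (1.77), and the 3 filled points below 0 are in class C.

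Of the 5 cytosolic class B genes, 4 were called at least 2-fold higher, against 1.84% of all genes. DNAJB1, the heat-inducible partner of cytosolic HSP70 long known as HSP40, read 7351, 6808 and 7381 on the gedunin arrays, against 558 and 605 on DMSO 1 and 2. Every gedunin array thus lay far above both DMSO arrays. The rise was 12.3-fold (log2 fold change 3.63 ± 0.091, adjusted p = 9.23e-09), the 11th largest of all 12165 genes. Its other probe set read 7862, 8168 and 7291 with gedunin, against 495 and 535 with DMSO (log2 fold change 3.92 ± 0.093). DNAJB4, a close relative of DNAJB1 that also serves cytosolic HSP70, read 1872, 2124 and 1858 with gedunin, against 189 and 209 with DMSO, with no overlap. Its rise was 9.80-fold (3.29 ± 0.099, adjusted p = 3.52e-08), the 17th largest of all genes, and its other probe set rose by 3.49 ± 0.092. On the probe sets used for the family, the groups overlapped only for DNAJB5, DNAJC4 and DNAJC6. A lack of overlap thus also held for members not called, such as DNAJC8, and does not set the called genes apart. Its share over all genes was not counted.

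DNAJB6, known for keeping polyglutamine proteins from aggregating, read 507, 473 and 471 with gedunin, against 133 and 151 with DMSO. The rise was 3.40-fold (1.77 ± 0.095, adjusted p = 1.43e-06), and a second probe set rose by 1.34 ± 0.12. A probe set that names DNAJB6 together with its pseudogene was not used. DNAJB2, which carries ubiquitin-interacting motifs and steers clients toward the proteasome, read 97.1, 105 and 106 with gedunin, against 48.6 and 49.1 with DMSO. DNAJB2 thus rose 2.10-fold (1.07 ± 0.088, adjusted p = 3.08e-05). With all 6 arrays it was not called (1.53, adjusted p = 0.192), and on DMSO 3 it read 19.

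DNAJB5, the remaining cytosolic class B gene and a relative of DNAJB1 and DNAJB4 in sequence, had no called change. Its 34.9, 35.8 and 33.8 with gedunin lay among the 35.7 and 32.5 of DMSO (0.033 ± 0.089, adjusted p = 0.867). These intensities are close to the array median, and its second probe set, which read below that median, was not called either (-0.027 ± 0.091). Of the 5 cytosolic class B genes measured, 4 were therefore called higher, against 8.24% of all genes. The median log2 fold change of the 5 was 1.77.

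**Figure D2:**
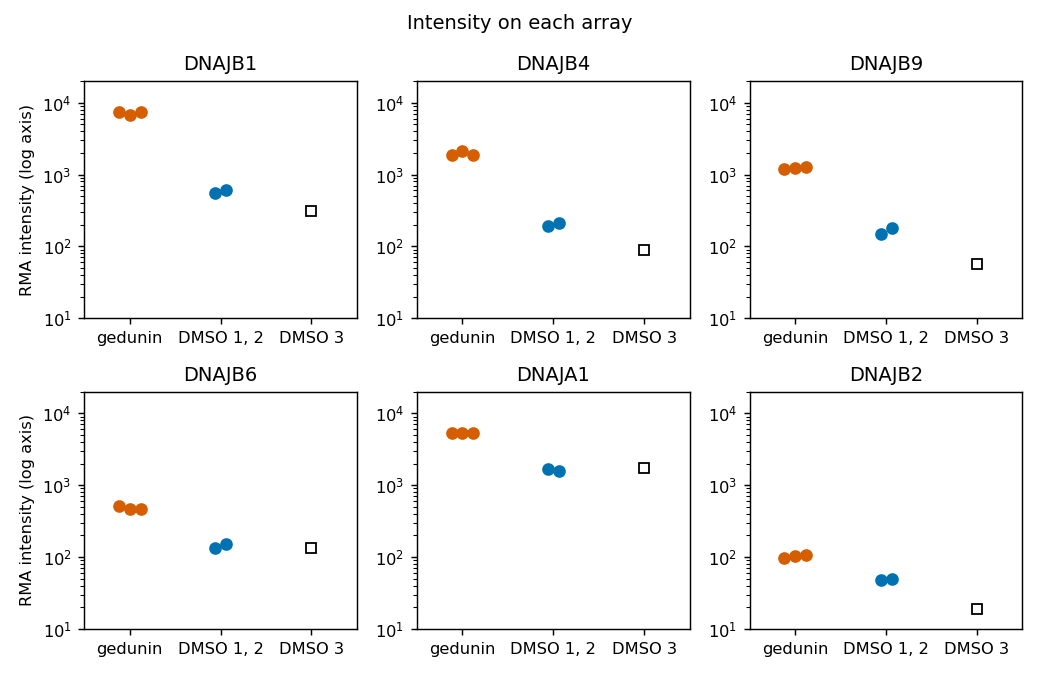
RMA intensity (log axis) on each array for the 6 DNAJ genes that were called at least 2-fold higher: gedunin (orange, 3 arrays), DMSO 1 and 2 (blue) and the array labelled DMSO 3 (open square, not in the comparison). In each panel the 3 gedunin points lie above both DMSO points, and the square lies below DMSO 1 and 2 for DNAJB1, DNAJB4, DNAJB9 and DNAJB2.

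Among class A genes, DNAJA1, the abundant farnesylated partner of cytosolic HSC70, changed most. It read 5329, 5295 and 5267 with gedunin, against 1669 and 1587 with DMSO, a 3.25-fold rise (1.70 ± 0.085, adjusted p = 8.29e-07). The second probe set rose by 2.15 ± 0.086, so the 2 probe sets placed the rise differently in size. DNAJA2, the other widely expressed cytosolic class A gene, read 501, 448 and 455 with gedunin, against 305 and 339 with DMSO. It rose 1.45-fold (0.54 ± 0.096, adjusted p = 0.00408), a call that ended without DMSO 1 (0.46, adjusted p = 0.0593).

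DNAJA4, a further cytosolic class A gene, was at the low end of the arrays. It read 26.3, 20.3 and 22.6 with gedunin, against 32.1 and 27.8 with DMSO. Its mean log2 value over the 5 arrays was below the median of all probe sets, a range in which RMA compresses folds. The change was not called (-0.38 ± 0.12, adjusted p = 0.0662), but was called lower without gedunin 1 (-0.48, adjusted p = 0.0274). Over the 4 class A genes, 3 were called higher and 0 lower by limma, against 8.24% and 9.36% of all genes. At an unadjusted p of 0.05 limma gave 1 lower, where 17.3% of all genes were. The class A median was 0.52.

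The ER members differed widely in the size of their change. DNAJB9, the ER-resident partner of BiP that also binds the stress sensor IRE1, read 1191, 1240 and 1253 with gedunin, against 150 and 178 with DMSO. It rose 7.51-fold (2.91 ± 0.099, adjusted p = 6.80e-08), the 19th largest rise of all genes. Its second probe set, which was below the median of all probe sets with DMSO (17.7 and 16.7), rose by 2.26 ± 0.16.

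Changes in the remaining 6 ER genes were all under 2-fold. DNAJC10, an ER reductase that opens disulfides of proteins bound for degradation, read 160, 157 and 171 with gedunin, against 116 and 117 with DMSO. The gene rose 1.39-fold (0.48 ± 0.088, adjusted p = 0.00486), although its second probe set was not called (0.34 ± 0.13, adjusted p = 0.108). DNAJB12 and DNAJB14 are related ER membrane proteins whose J domain faces the cytosol. DNAJB12 read 376, 408 and 397 with gedunin, against 318 and 321 with DMSO (0.30 ± 0.087, adjusted p = 0.0440). That call ended in 12 of 18 alternatives, among them leaving out any 1 of the 5 arrays, and none of its 3 other probe sets was called. DNAJB14 had a similar value, 0.31 ± 0.12, which was not called (adjusted p = 0.134), as DMSO 1 read 101, next to the lowest gedunin value of 102. Without DMSO 1 it was called (0.51, adjusted p = 0.0389).

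DNAJC3, the ER cochaperone of BiP also known as P58IPK, showed 1 array apart from the rest of its group. It read 81.8, 82.0 and 51.5 on gedunin 1, 2 and 3, against 47.5 and 47.0 with DMSO. All gedunin values lay above both DMSO values, but the change was not called (0.57 ± 0.18, adjusted p = 0.0629). Without gedunin 3 it was called (0.79, adjusted p = 5.95e-04). The replicate block gave the same estimate (0.79, adjusted p = 0.00153), because gedunin 3 has no DMSO partner there and adds nothing to it. DNAJC3 was also called with array weights (0.61, adjusted p = 0.0354) and trend and robust eBayes (0.57, adjusted p = 0.0308). The same held for a second quantile normalization (0.61, adjusted p = 0.0463) and centring on the array median (0.59, adjusted p = 0.0495). DNAJC1 (0.25 ± 0.11, adjusted p = 0.169), an ER membrane protein that meets the ribosome, and DNAJC16 (0.19 ± 0.089, adjusted p = 0.218) were not called. In all, 3 of the 7 ER genes were called higher and 0 lower by limma, against 8.24% and 9.36% of all genes. At an unadjusted p of 0.05 limma also gave 0 lower, against 17.3% of all genes. So few genes do not show whether a lack of falls is particular to the ER group. The ER median was 0.31.

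The mitochondrial members moved in different directions. DNAJA3, the class A partner of mitochondrial HSP70, read 398, 374 and 289 with gedunin, against 250 and 243 with DMSO. It rose 1.42-fold (0.51 ± 0.13, adjusted p = 0.0276), and the call ended without gedunin 1 (0.41, adjusted p = 0.0810), without gedunin 2 (0.46, adjusted p = 0.0733), without DMSO 1 (0.53, adjusted p = 0.133) and without DMSO 2 (0.48, adjusted p = 0.164). DNAJC11, a protein of the mitochondrial outer membrane tied to cristae organisation, read 123, 161 and 134 with gedunin, against 220 and 225 with DMSO. It fell by 0.68 ± 0.12 on the log2 scale (adjusted p = 0.00317), the largest fall in the family. DNAJC15, a J protein of the inner membrane import channel, read 195, 178 and 186 with gedunin, against 153 and 164 with DMSO, and was not called (0.23 ± 0.09, adjusted p = 0.123).

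**Figure D3:**
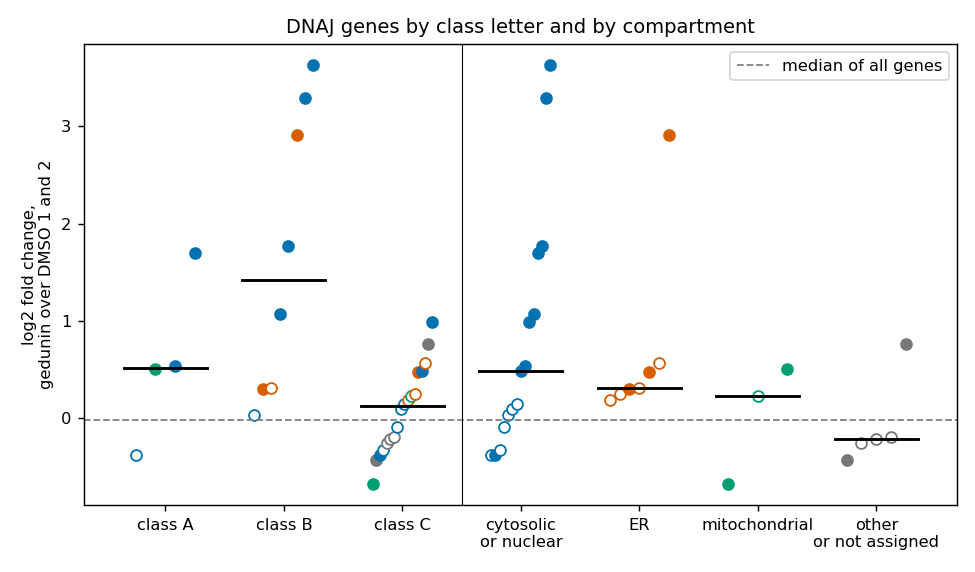
Log2 fold change (gedunin over DMSO 1 and 2) of the DNAJ genes, grouped by class letter on the left and by compartment on the right, so that each gene appears once on each side; black bars are group medians, the dashed line is the median of all genes, and open points were not called. Class B has a median of 1.42, class A 0.52 and class C 0.13, and the cytosolic or nuclear, ER and mitochondrial medians are 0.49, 0.31 and 0.23.

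Class C is the most varied in function, and its changes were smaller. DNAJC7, which binds HSP70 and HSP90 through tetratricopeptide repeats, read 1678, 1445 and 1308 with gedunin, against 743 and 734 with DMSO. It rose 1.99-fold (0.99 ± 0.11, adjusted p = 2.52e-04), just short of a 2-fold change. Its second probe set, with 94.7, 84.3 and 36.9 with gedunin against 38.0 and 56.8 with DMSO, overlapped between the groups and was not called (0.52 ± 0.34). DNAJC12, a cochaperone of the aromatic amino acid hydroxylases, read 434, 425 and 467 with gedunin, against 233 and 290 with DMSO. This was a 1.70-fold rise (0.76 ± 0.11, adjusted p = 0.00116).

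DNAJC2, which works at the ribosome with the HSP70 relative HSPA14, read 295, 319 and 351 with gedunin, against 238 and 220 with DMSO. It rose 1.40-fold (0.49 ± 0.10, adjusted p = 0.00901), and the call ended without DMSO 2 (0.43, adjusted p = 0.0958). HSPA14 itself, named after its value was seen, rose by 0.45 ± 0.10 (adjusted p = 0.0166).

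The other called falls were also in class C. DNAJC13, which acts in endosomal sorting, read 28.8, 31.1 and 31.3 with gedunin, against 39.5 and 42.4 with DMSO, close to the median of all probe sets. It fell by 0.43 ± 0.090 (adjusted p = 0.00998), and the call ended without DMSO 2 (-0.38, adjusted p = 0.0991). DNAJC9, a chaperone of histones H3 and H4, read 435, 405 and 449 with gedunin, against 560 and 558 with DMSO, and fell by 0.38 ± 0.089 (adjusted p = 0.0171). Its call ended without gedunin 2 (-0.34, adjusted p = 0.0558), without DMSO 1 (-0.38, adjusted p = 0.104) and without DMSO 2 (-0.38, adjusted p = 0.0998), and its second probe set was not called (-0.12 ± 0.11).

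Of the 18 class C genes, 4 were called higher (22.2%) and 3 lower (16.7%), against 8.24% and 9.36% of all genes. The other 11 were not called. Over all 30 DNAJ genes the 3 falls made up 10%, close to the share of all genes. Beside the ER genes DNAJC1, DNAJC3 and DNAJC16 and mitochondrial DNAJC15, those not called were 7 genes with log2 fold changes of -0.33 to 0.15. Auxilin, encoded by DNAJC6, which uncoats clathrin vesicles, had 0.10 ± 0.12. The splicing-associated genes DNAJC8 and DNAJC17 had -0.090 ± 0.083 and -0.33 ± 0.11, and DNAJC24, needed for diphthamide synthesis, had 0.15 ± 0.089. DNAJC4 (-0.19 ± 0.11), DNAJC22 (-0.25 ± 0.11) and DNAJC28 (-0.21 ± 0.095) are less well characterised. The means of DNAJC17 and DNAJC28 over the 5 arrays were below the median of all probe sets, and with DNAJA4 they were the 3 family members of which this held. Without gedunin 3, DNAJC17 was called lower (-0.39, adjusted p = 0.0378).

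Side by side, 6 of 8 class B genes (75%), 3 of 4 class A genes (75%) and 4 of 18 class C genes (22.2%) were called higher, with the 8.24% of all genes as background. By compartment the counts were 8 of 15 cytosolic or nuclear genes (53.3%), 3 of 7 ER genes (42.9%) and 1 of 3 mitochondrial genes. Of the 5 placed elsewhere or not assigned, all in class C, 1 was called higher. Class and compartment are not independent. Among cytosolic or nuclear genes the counts were 2 of 3 in class A, 4 of 5 in class B and 2 of 7 in class C. Among ER genes they were 2 of 3 in class B and 1 of 4 in class C. The difference between these groups was not tested. Of the 16 called genes, 9 had other probe sets. Another probe set was called in the same direction for 5 of them (DNAJA1, DNAJB1, DNAJB4, DNAJB6 and DNAJB9), none was called for 4 (DNAJB12, DNAJC7, DNAJC9 and DNAJC10), and 0 had one called in the opposite direction. DNAJA1, DNAJB1, DNAJB4, DNAJB6, DNAJB9 and DNAJC7 were the 6 genes called higher with all 6 arrays as well.

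Most HSP70 and HSP110 genes rose. Of 15 measured, 13 were called higher and 0 lower by limma, against 8.24% and 9.36% of all genes. At an unadjusted p of 0.05 limma also gave 0 lower, against 17.3% of all genes. The median log2 fold change of the 15 was 1.08. With all 6 arrays 6 of the 15 were called higher, against 1.31% of all genes. The difference between these genes and the DNAJ genes was not tested. The largest were HSPA6 (6.47 ± 0.13) and HSPA1A (3.86 ± 0.17), the strongly inducible HSP70s, and HSPA4L (3.44 ± 0.10) and HSPH1 (3.31 ± 0.090), which belong to the HSP110 branch. On DMSO 1 and 2, HSPA6 read 28.2 and 20.9 and HSPA1A 18.2 and 27.4, below the median of all probe sets. The table has no detection calls, and RMA compresses folds at that level, so the sizes of these 2 rises and their order are uncertain. On DMSO 3 HSPA1A read 283, within its 330, 366 and 279 on the gedunin arrays. With all 6 arrays limma did not call it (2.63, adjusted p = 0.419), whereas HSPA6 stayed called (6.46, adjusted p = 3.29e-04). The probe sets of HSPA1A may also read HSPA1B, a gene of nearly the same sequence. HSPA1B, named after its value was seen, rose by 2.68 ± 0.087. On DMSO 3 HSPA1B read 47.1, against 601 and 566 on DMSO 1 and 2. HSPA8, the constitutive partner in the cytosol, rose by 0.75 ± 0.089, BiP (HSPA5) in the ER by 0.77 ± 0.11 and mitochondrial HSPA9 by 0.68 ± 0.088. HSPA2 (0.15 ± 0.094) and HSPA12A (-0.14 ± 0.13), named after their values were seen, were not called, and both read below the median of all probe sets.

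Among 10 measured exchange factors and other HSP70 regulators, 3 were called higher by limma, against 8.24% of all genes, with a median of -0.054. None was called lower (2 lower at an unadjusted p of 0.05, against 17.3% of all genes). The higher ones were BAG3 (3.51 ± 0.088), BAG2 (1.38 ± 0.11) and ST13 (0.33 ± 0.086), which act on cytosolic HSP70. With all 6 arrays 0 of the 10 were called higher, against 1.31% of all genes. BAG2 read 200 on DMSO 3, above its 155, 168 and 139 on the gedunin arrays. The ER exchange factor SIL1 (-0.19 ± 0.11) and the mitochondrial one, GRPEL1 (0.064 ± 0.10), were not called. HYOU1, an HSP110 relative counted above that also acts as an exchange factor of BiP, was called higher (0.62 ± 0.084, adjusted p = 8.50e-04). These 3 were named after their values were seen. Of the 4 J-domain genes listed under other symbols, 2 were measured. SEC63, of the ER translocon, had 0.23 ± 0.092 (adjusted p = 0.137), and GAK, a relative of auxilin, -0.10 ± 0.097 (adjusted p = 0.563), so 0 were called by limma (1 higher at an unadjusted p of 0.05, where 13.1% of all genes were).

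**Figure D4:**
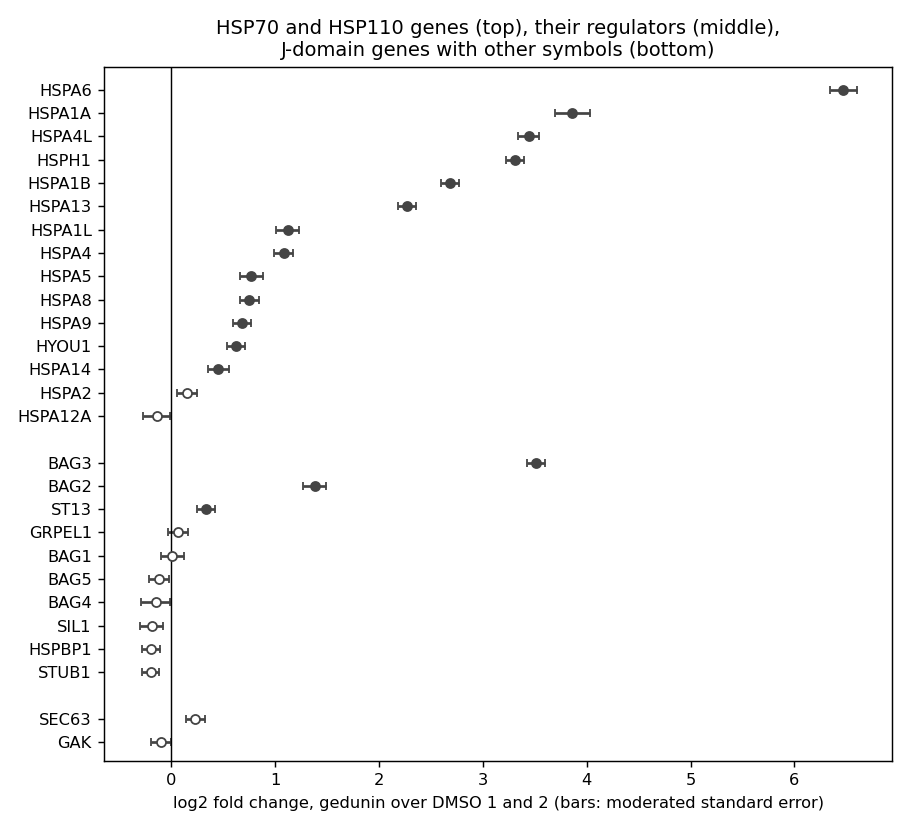
Log2 fold change (gedunin over DMSO 1 and 2, bars: moderated standard error) of the HSP70 and HSP110 genes, of exchange factors and regulators of HSP70, and of 2 J-domain genes with other symbols, from the top; open points were not called. Of the 15 HSP70 and HSP110 genes 13 are filled, and of the 10 regulators BAG3, BAG2 and ST13 are.

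On the array labelled DMSO 3 most DNAJ genes read within 4-fold of DMSO 1 and 2. It held 1 DNAJ gene at least 4-fold above both and 0 at least 4-fold below, against 3.58% and 4.28% of all genes. The 1 gene was DNAJC15, with 674 on DMSO 3 against 153 and 164 on DMSO 1 and 2. DNAJB9 (56.6 against 150 and 178) and DNAJB2 (19 against 48.6 and 49.1) stood furthest below. DNAJB1 read 314 and DNAJB4 90.4 there, below their values on DMSO 1 and 2, while DNAJA1 (1759) and DNAJB6 (135) lay near them. For DNAJB1, DNAJB4 and DNAJB9 the 6-array folds are accordingly larger, at 3.92, 3.67 and 3.42 on the log2 scale.

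**Figure D5:**
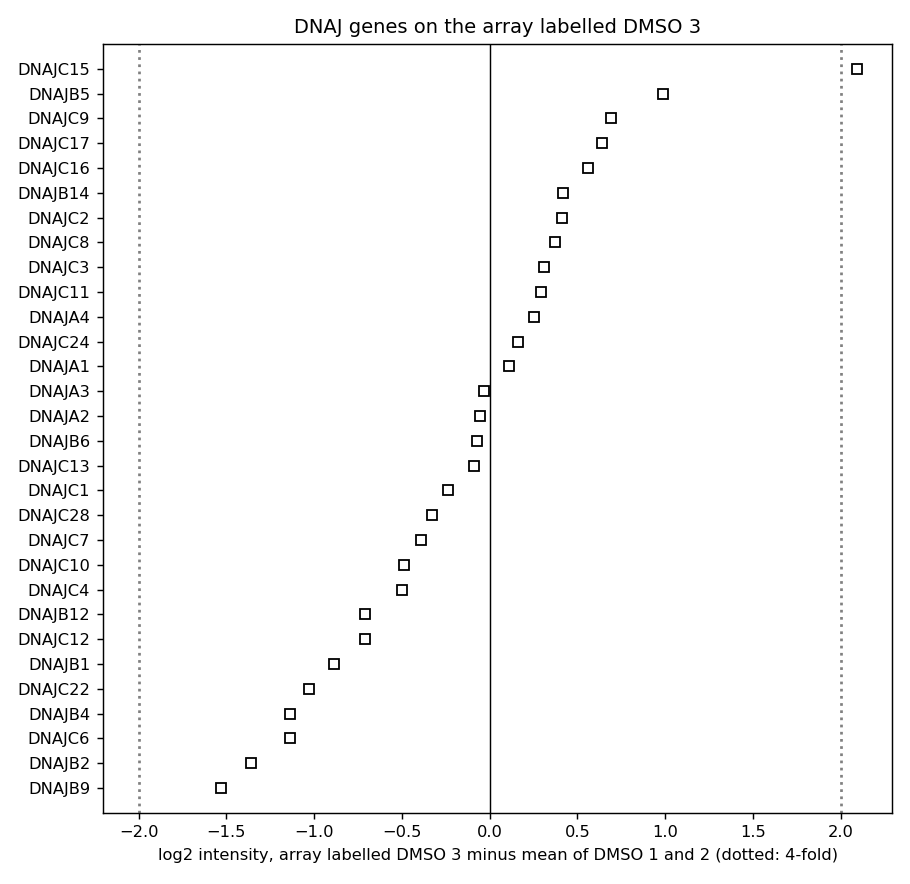
Difference in log2 intensity between the array labelled DMSO 3 and the mean of DMSO 1 and 2 for each DNAJ gene, in order; dotted lines mark 4-fold. DNAJC15 (2.09) lies beyond the upper line, and DNAJB9 (-1.53) is the lowest.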

How the data were processed

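The deposited table gives 1 intensity per probe set and array, made by the authors with RMA (background correction, quantile normalization and a summary of each probe set), as named without a version in the submitters' processing notes. Values were linear, so log2 was taken. Of 22215 probe sets, 19724 named 1 gene in the platform annotation of 2016, 568 several and 1923 were not listed. Each gene took the probe set with the highest mean log2 value over the 5 arrays compared. Gedunin (3 arrays) was set against DMSO 1 and 2 with limma 3.58.1 (lmFit and eBayes, R 4.3.3), fitted on all probe sets without a filter, with Benjamini-Hochberg adjustment over all of them and a threshold of 0.05. Errors after ± are limma's moderated standard errors, on the log2 scale. The number of arrays limits the precision. The code was tested on simulated data.

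The members, lists, markers and the exclusion of DMSO 3 were chosen with earlier results of these data known. All members could be named. Those called with a log2 fold change of at least 1 in size were to get full values, which were also given for others, and up to 4 called genes of each list were named, beside HSPA1A, HSPA6, HSPA8, HSPA5 and HSPA9. Class follows the symbol, and compartment was assigned from general knowledge. The alternatives tried were all 6 arrays, a filter on dim probe sets, 3 other scalings, a replicate block, trend and robust eBayes, array weights, a threshold of 0.01, other choices of probe set, log2 of the value plus 16, and leaving out each array.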

Additional observations from a re-analysis of the deposited data

Results flagged for a closer look

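DNAJC15 is flagged because of its signal on an array that the comparison does not use. On the array labelled DMSO 3 it read 674, against 153 on DMSO 1 and 164 on DMSO 2 and 178 to 195 on the gedunin arrays. This is 4.26-fold above the mean of DMSO 1 and 2, and only 1 probe set measures the gene. It was the 1 DNAJ gene of 30 at least 4-fold above both, where 3.58% of all genes were, so the family does not stand out. The same array carried high leukocyte markers and low luminal prostate markers, and their part in this value was not tested.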

How the results depend on the processing

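With all 6 arrays 6 DNAJ genes were called higher and 0 lower, with a median log2 fold change of 0.34. Centring on GAPDH and ACTB gave 10 higher, 8 lower and a median of 0.10, and split all genes into 652 higher and 3139 lower, against 1003 and 1139. Without probe sets ending in _x_at or _s_at, 20 of the 30 genes were measured, with 7 higher, 1 lower and a median of 0.21. Leaving out 1 array at a time gave 10 to 13 higher, 1 to 4 lower (1 without DMSO 2) and medians of 0.26 to 0.29. Where 1 DMSO array was left, it is assumed to vary like the gedunin arrays. With the replicate number as a block, 13 were higher and 4 lower, with a median of 0.28. Gedunin 3 has no DMSO partner in that fit, so its estimates are those of the fit without gedunin 3. The deviations of same-numbered arrays correlated at -0.0326 and 0.0392. Deviations of 2 DMSO arrays from their own mean mirror each other. These values are therefore not independent and cannot show whether same-numbered cultures were paired. The counts stayed within 1.5 times and the medians within 0.0577, the SD over the gedunin arrays, under the remaining alternatives.

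The calls of DNAJA1, DNAJB1, DNAJB4, DNAJB6, DNAJB9 and DNAJC7 held in every alternative in which they were fitted. DNAJC11, DNAJC12 and DNAJB2 lost theirs only with all 6 arrays. Each sign that turned belonged to a gene not called in either fit. With all 6 arrays these were DNAJB5 (-0.30), DNAJC15 (-0.46), DNAJC16 (-0.0025) and DNAJC22 (0.096). Centred on GAPDH and ACTB they were DNAJB5 (-0.14), DNAJC24 (-0.017) and DNAJC6 (-0.065). The mean of all probe sets turned DNAJC16 (-0.045), and dropping _x_at and _s_at probe sets turned DNAJC4 (0.14) and DNAJC8 (0.070). DNAJB5 turned without DMSO 2 (-0.035) and DNAJC6 without DMSO 1 (-0.043, against up to 0.25 without DMSO 2). The causes were not tested. RMA compresses folds of dim probe sets, which limits what can be said of DNAJA4, DNAJC17 and DNAJC28, with means below the array median, and of DNAJB5, DNAJC6, DNAJC13 and DNAJC22, close to it.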
